A study of Mus musculus with 8 samples.

Results

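Resting chromatin was compared between vehicle-treated bone marrow-derived macrophages (BMDMs) of 2 kinds, NCoR f/f (floxed Ncor1 alleles) and wild type (WT), which the study profiled by ATAC-seq in separate peak tables. Peaks of the NCoR f/f table and of the WT table were paired where their overlap covered at least 50% of both peaks, on the mm10 genome. This gave 8609 peak pairs, which held 88.8% of the 9698 merged peaks of the WT table and 34.6% of the 24867 merged peaks of the NCoR f/f table, and no peak had more than 1 partner. The compared libraries were 4 of the 8 in the series. The question was how similarly the same regions rank in both sets of vehicle libraries.

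All 4 libraries came from C57BL/6 BMDMs taken at 6 h of vehicle (Veh), with 70000 cells in each transposase reaction and, by the study's methods, mice aged 8 to 12 weeks. The NCoR f/f cells carried floxed Ncor1 alleles, with no Cre named in their labels, and they served the study as the control of its myeloid knockout. The labels of the WT cells name no floxed allele. Each group had 2 libraries, and nothing in the labels says whether they came from separate mice or cultures, so p-values measure only the spread between these libraries, which may be technical. The library names hold the code l20201015 for NCoR f/f and l20201023 for WT. The WT names also hold Veh where the names of libraries given the inhibitor RGFP966 hold RGFP966, and the NCoR f/f names hold NCoRWT there. Whether an inhibitor vehicle was given only to the WT cells is not stated. Genotype, library code, peak table and any such difference therefore coincide and cannot be told apart. No difference below is assigned to any of them.

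ATAC-seq reads open chromatin through a transposase that inserts adapters where DNA is accessible. In macrophages, open regions comprise promoters, which many cell types share, and distal elements, which are typically opened by lineage factors such as PU.1, C/EBP and AP-1. NCoR is a corepressor that holds the deacetylase HDAC3 on chromatin, and it is present in cells of both groups. Repeats such as the satellites next to centromeres and the ribosomal DNA are also sampled by the assay, and their copies are nearly identical, so tags placed in one copy can come from another and the counts of such pairs are uncertain.

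The sequences shown first are those on which the results turn. They are the mm10 bases shared by both peaks of a pair, at most the central 300, read from the GRCm38.p6 chromosomes. Capitals mark matches on either strand to GAGGAAGT (PU.1), TTGCNNAA (C/EBP), TGANTCA (AP-1), CCAAT (NF-Y) or CACGTG (E-box). In the central 200 bases of the overlap, these letters stood in 7.82%, 10.3%, 17.6%, 34.4% and 6.49% of the 8464 pairs on chromosomes 1 to 19, X and Y. The AP-1 and E-box strings read the same on both strands, and none of the strings is contained in another.
4933422A05Rik, the pair with the highest mean rank, a gamma satellite (chr9:35305356-35305555, plus strand): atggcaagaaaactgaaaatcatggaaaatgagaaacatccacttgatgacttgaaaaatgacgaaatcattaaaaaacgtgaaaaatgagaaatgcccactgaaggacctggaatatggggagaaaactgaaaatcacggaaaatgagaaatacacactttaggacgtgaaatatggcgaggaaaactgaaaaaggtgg
Col19a1, the highest pair outside repeats and Rn45s (chr1:24613017-24613217, plus strand): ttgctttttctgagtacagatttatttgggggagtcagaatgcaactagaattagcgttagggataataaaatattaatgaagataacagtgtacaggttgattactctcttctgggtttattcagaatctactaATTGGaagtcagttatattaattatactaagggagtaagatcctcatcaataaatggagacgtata
Hjurp, a promoter high in every library (chr1:88277477-88277769, plus strand): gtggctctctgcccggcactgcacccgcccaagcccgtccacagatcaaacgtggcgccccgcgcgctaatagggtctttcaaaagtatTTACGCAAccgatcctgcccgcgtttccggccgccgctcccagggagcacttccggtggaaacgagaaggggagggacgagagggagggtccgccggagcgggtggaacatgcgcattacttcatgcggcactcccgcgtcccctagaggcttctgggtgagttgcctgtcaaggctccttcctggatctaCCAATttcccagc
Serpini2, intergenic, higher in WT Veh (chr3:75293250-75293549, plus strand): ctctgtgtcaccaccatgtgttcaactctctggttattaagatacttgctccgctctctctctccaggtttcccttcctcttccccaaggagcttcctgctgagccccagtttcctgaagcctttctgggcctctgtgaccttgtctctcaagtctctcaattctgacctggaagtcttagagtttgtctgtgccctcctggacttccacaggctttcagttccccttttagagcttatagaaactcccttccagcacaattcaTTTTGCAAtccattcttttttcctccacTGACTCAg
Insig1, intergenic, higher in WT Veh (chr5:28037223-28037397, plus strand): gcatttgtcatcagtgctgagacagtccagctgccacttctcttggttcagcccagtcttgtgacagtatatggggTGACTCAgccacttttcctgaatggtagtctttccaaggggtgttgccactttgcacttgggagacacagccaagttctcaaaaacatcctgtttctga
Etfdh, promoter, higher in WT Veh (chr3:79628758-79629019, plus strand): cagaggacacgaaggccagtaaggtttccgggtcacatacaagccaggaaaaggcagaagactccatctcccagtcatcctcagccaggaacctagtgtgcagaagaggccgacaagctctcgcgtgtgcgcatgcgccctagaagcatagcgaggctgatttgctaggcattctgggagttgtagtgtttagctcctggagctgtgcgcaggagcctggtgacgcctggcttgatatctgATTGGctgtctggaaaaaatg
Trim32, promoter, higher in NCoR f/f Veh (chr4:65604833-65605047, plus strand): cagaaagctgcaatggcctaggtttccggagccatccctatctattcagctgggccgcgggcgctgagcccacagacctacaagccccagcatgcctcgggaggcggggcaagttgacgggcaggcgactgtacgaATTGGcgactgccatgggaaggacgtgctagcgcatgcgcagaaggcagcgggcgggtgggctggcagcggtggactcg
Socs1, near the start site, higher in NCoR f/f Veh (chr16:10785136-10785435, plus strand): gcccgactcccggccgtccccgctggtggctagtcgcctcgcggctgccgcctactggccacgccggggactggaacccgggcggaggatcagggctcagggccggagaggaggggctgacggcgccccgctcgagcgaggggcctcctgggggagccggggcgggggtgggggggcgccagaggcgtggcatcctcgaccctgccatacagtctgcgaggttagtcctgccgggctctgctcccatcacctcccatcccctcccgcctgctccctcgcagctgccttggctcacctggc
Mtfr1, promoter, higher in NCoR f/f Veh (chr3:19188045-19188288, plus strand): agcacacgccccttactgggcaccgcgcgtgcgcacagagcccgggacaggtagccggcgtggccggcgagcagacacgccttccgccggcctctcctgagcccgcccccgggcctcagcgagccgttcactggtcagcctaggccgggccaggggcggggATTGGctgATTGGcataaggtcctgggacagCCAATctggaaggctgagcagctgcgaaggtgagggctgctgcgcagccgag

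The satellite sequence held none of these strings. The Mtfr1 promoter held several CCAAT boxes, the Insig1 and Serpini2 regions each held 1 AP-1 match, and the Socs1 bases held none of the strings. A match is only a run of letters and no evidence that a factor binds.

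The 4 libraries held between 111514 and 260148 tags in the pairs, with a median of 19 and 27 tags per pair in NCoR f/f Veh and 12 and 11 in WT Veh. Pairs took 50.2% and 51.0% of all peak tags in the NCoR f/f libraries and 92.4% and 92.1% in the WT libraries, since most peaks of the larger table had no WT partner. Paired peaks were wider in the NCoR f/f table, with a median of 314 bp against 270 bp, and the WT peak was the narrower one in 6220 pairs (72.2%). Satellites took 3.77% and 2.83% of the tags in NCoR f/f Veh and 4.54% and 5.93% in WT Veh. The X chromosome took 1.35% to 1.45% in all 4 libraries, and 4222 pairs came from the Veh peak sets of both tables.

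The labelled cell type was checked at pairs assigned to marker genes. Macrophage lineage factors had pairs at 12 of 14 genes, and these took 333 and 358 of 100000 tags in NCoR f/f Veh and 357 and 348 in WT Veh. Macrophage markers had pairs at 6 of 17 genes (C1qc, Cd68, Cd36, Fcgr1, Cx3cr1 and Itgam), with 64.7 and 60.0 tags in NCoR f/f Veh and 88.1 and 68.2 in WT Veh. Spi1, which encodes PU.1, had 3 peaks in the NCoR f/f table and 0 in the WT table, and Csf1r, the M-CSF receptor, had 3 and 1 that formed no pair. B cell genes and erythroid and mast cell genes had no pair, and 1 of 11 neutrophil, 2 of 11 T cell, 3 of 9 dendritic cell and 1 of 10 fibroblast genes had one. The neutrophil sums, from 1 pair, were 7.49 and 6.53 in NCoR f/f Veh and 3.36 and 4.48 in WT Veh. The T cell sums were 24.60 and 23.06 against 20.98 and 19.73, also lower in WT Veh. The dendritic cell sums of 33.16 and 25.37 against 37.77 and 30.49 overlapped between groups. The fibroblast sums of 8.02 and 4.61 against 8.39 and 9.86 were higher in WT Veh. No pair of these lists was called, and the part of these cell types in the results was not tested. A lower share of cells with an open region and a lower opening per cell cannot be told apart in bulk libraries.

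Region ranks were correlated across the sets of vehicle libraries, but less so than between replicate libraries of 1 set. Each pair was given its percentile rank in tags per kb within its own library. Spearman's rho over the 8609 pairs was 0.774 between the NCoR f/f libraries, 0.678 between the WT libraries, and 0.622 to 0.640 for the 4 comparisons across groups. Both within-group values lay above all 4 across-group values, and the across-group range lay closer to the WT value. Libraries of 1 group were counted over the same peak edges and divided by the same widths, while those of different groups were not. Peaks had also been kept for recurring between samples of a condition. The part of both in this order was not tested, so it is not read as a difference between the cells. The points share libraries, low tag counts and GC content, so rho is a description.

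A pair moved by over 20 percentile points in 27.7% of cases between the NCoR f/f libraries, in 35.0% between the WT libraries and in 38.4% to 38.9% across groups. The median step was 10.8 points within NCoR f/f, 13.2 within WT and 14.3 to 14.7 across groups. By both measures, steps across groups were larger than those within either group, with the same limits of peak edges and peak choice. Both WT ranks lay above both NCoR f/f ranks, with group means over 20 points apart, in 1066 pairs (12.4%), and below them in 1049 (12.2%). The upper set was 40.8% promoters (within 2 kb of a start site), the lower set 68.2%, and all pairs 52.1%. Over all promoter pairs the median rank difference, WT minus NCoR f/f, was -2.60 points, and over all distal pairs it was 2.28 points.

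**Figure D1:**
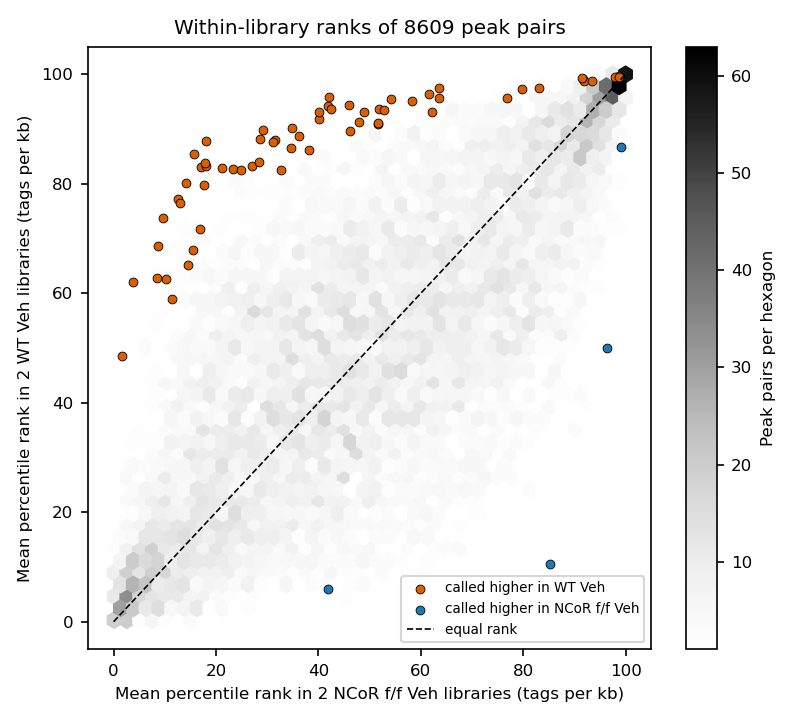
Mean percentile rank of tags per kb in the 2 WT Veh libraries (y axis) against that in the 2 NCoR f/f Veh libraries (x axis) for 8609 peak pairs. Grey hexagons count pairs, orange and blue points are the 62 and 4 pairs called by edgeR, and the dashed line marks equal rank. The grey mass lies along the line, and most called points lie far off it, apart from a few at the top right.

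The pairs with both ranks far from the other group are shown by 2 examples, each with fewer tags than the median pair on average. An intron of 2310001H17Rik held 13 and 21 tags in NCoR f/f Veh and 16 and 14 in WT Veh, at ranks of 15.1 and 20.9 against 88.5 and 87.1, and was called (log2 difference 1.67 ± 0.37, edgeR adjusted p = 0.023, or 0.77 and not called without an offset for width). Its NCoR f/f peak spanned 393 bp and its WT peak 209 bp. The Gemin2 promoter, at a gene whose product takes part in assembling spliceosomal particles, held 23 and 31 tags in NCoR f/f Veh and 2 and 4 in WT Veh, at ranks of 84.0 and 81.6 against 4.11 and 14.2. Here the widths were 250 and 212 bp, and the log2 difference of -1.95 ± 0.51 had an edgeR adjusted p of 0.052, while without the width offset it was -2.18 and called (edgeR adjusted p = 0.033). The first pair had similar tags over unequal widths, and the second had unequal tags over similar widths.

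The top of the ranking was shared. Of the 100 pairs highest in tags per kb, 54 were among the top 100 in all 4 libraries, against 79 shared by the NCoR f/f libraries and 73 by the WT libraries. Of these 54, 41 lay in annotated repeats, 36 of them satellites, 4 in the ribosomal DNA unit Rn45s and 6 within 2 kb of a start site. With repeats, Rn45s and unplaced contigs left out, 32 of the top 100 were shared by all 4 libraries, and 24 of these were promoters. Shared top pairs were mostly repeats in one list and mostly promoters in the other.

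The pair with the highest mean rank was the gamma satellite on chromosome 9 printed above, 24351 bp from 4933422A05Rik. It held 322 and 324 tags in NCoR f/f Veh and 308 and 332 in WT Veh. The tag numbers were nearly equal although the libraries differed in depth, so scaled to 100000 tags in pairs the densities per kb were 857 and 620 in NCoR f/f Veh and 1286 and 1481 in WT Veh. The groups did not overlap, and the log2 difference (WT minus NCoR f/f) was 0.91 ± 0.37 (SE, n = 2 libraries in each group), with an edgeR adjusted p of 0.228. The authors' counting kept at most 3 tags at a position, and the part of that limit in these numbers was not tested.

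Satellites of 1 cluster on chromosome 2, assigned to Lrrc4c at over 1 Mb, took 4 of the 10 highest places. One at chr2:98667031-98667244 held 179 and 182 tags in NCoR f/f Veh and 237 and 265 in WT Veh. In density this was 447 and 327 against 825 and 986, and the log2 difference of 1.23 ± 0.33 had an edgeR adjusted p of 0.062. Without the width offset it was 1.40 and called (edgeR adjusted p = 0.040). The others of the cluster differed by 0.52 to 1.00, and none was called on either scale. The 3 pairs among the 10 of Rn45s, which is transcribed into ribosomal RNA, stood the other way round.

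The Rn45s pair at chr17:39848185-39848462 held 376 and 479 tags in NCoR f/f Veh and 176 and 226 in WT Veh. Its densities were 723 and 662 in NCoR f/f Veh and 445 and 610 in WT Veh, and the log2 difference of -0.39 ± 0.36 had an edgeR adjusted p of 0.645. The other Rn45s pairs differed by -0.42 and -0.40, and neither was called. Without the offset for width, the value of -0.42 became 0.42, so the direction at that pair depends on the peak edges. The values of -0.39 and -0.40 became -0.14 and -0.62 and kept their direction. Over all 124 satellite pairs the median log2 difference was 0.69, and 12 were called higher in WT Veh and 0 in NCoR f/f Veh by edgeR, beside 0.722% and 0.0466% of all tested pairs. Without the width offset that median was 0.66.

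**Figure D2:**
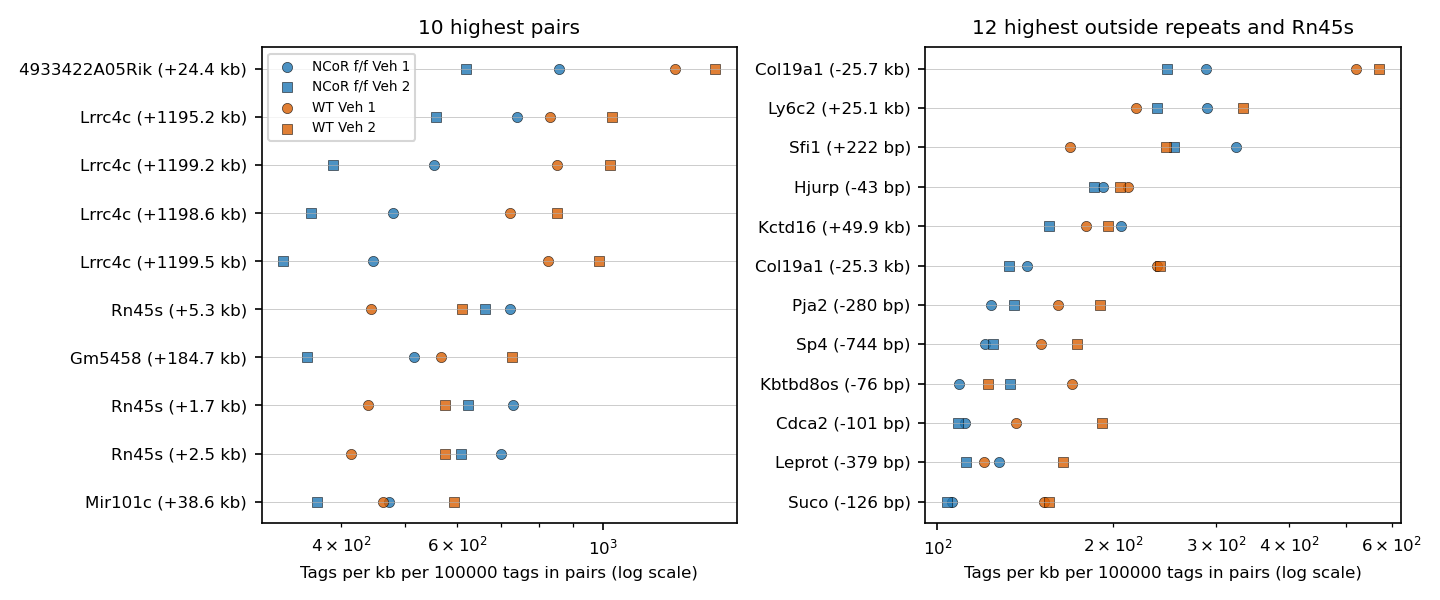
Tags per kb per 100000 tags in pairs (x axis, log scale) in each of the 4 Veh libraries for the 10 pairs with the highest mean rank (left) and the 12 highest without annotated repeats, Rn45s, unplaced contigs and regions of 20% or more soft-masked bases (right), with the gene and distance that the authors' table assigns. Points are single libraries, and most satellite rows and both Col19a1 rows show the WT points to the right of the NCoR f/f points.

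With annotated repeats, Rn45s, unplaced contigs and regions of 20% or more soft-masked bases left out, the highest pair lay on chromosome 1, assigned to the collagen gene Col19a1 at -25680 bp. It held 109 and 130 tags in NCoR f/f Veh and 125 and 128 in WT Veh, or densities of 289 and 247 against 522 and 571. The groups did not overlap, with a log2 difference of 1.03 ± 0.28 and an edgeR adjusted p of 0.063. Of the 25-base words of its overlap, 85.9% also stood in the mitochondrial genome of the reference. A neighbor at -25316 bp, with 90.5% of such words, held 54 and 70 tags against 58 and 55. These were the only pairs of the 8464 read with 50% or more of their words in the mitochondrial genome, and tags of mitochondrial origin at these sites cannot be told apart from nuclear ones.

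Next came the distal Ly6c2 pair described below and a pair near the start of Sfi1, and then the Hjurp promoter. The Hjurp promoter, at the gene of the centromere histone chaperone, held 127 and 170 tags in NCoR f/f Veh and 74 and 67 in WT Veh, or densities of 192 and 185 against 212 and 205. Its log2 difference was 0.15 ± 0.27, with an edgeR adjusted p of 0.862. The promoters of Pja2 (a ubiquitin ligase), Sp4 (an Sp family transcription factor), Cdca2, Leprot and Suco and the promoter pair assigned to Kbtbd8os ranked between 98.5 and 99.4 in every library, and none was called. A distal pair at 25085 bp from Ly6c2, which encodes a surface protein of monocytes, held 202 and 231 tags in NCoR f/f Veh and 86 and 123 in WT Veh. Its densities of 290 and 238 against 219 and 334 overlapped between groups, and its log2 difference was 0.07 ± 0.30.

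Tested with edgeR on tags with offsets for depth and peak width, few pairs were called different between the groups. Of 8589 pairs that reached 4 tags in some library, 62 were higher in WT Veh (0.722%) and 4 were higher in NCoR f/f Veh (0.0466%), 66 in all (0.768%), at a Benjamini-Hochberg adjusted p under 0.05 and over 2-fold. Far more, 1277, had an unadjusted edgeR p under 0.05. With 2 libraries in each group and low tag counts, a pair that was not called may still differ. The split between directions depended on scaling. It was 24 higher and 13 lower without the width offset, 28 and 31 with loess offsets, 18 and 17 with offsets for GC content, and 15 and 13 with the median density as depth. The median log2 difference over all pairs was 0.14 with the width offset, -0.05 without it and 0.42 with all tags of a library as depth, and each difference below is read against that median.

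Without NCoR f/f library 1 the counts were 39 and 0, without NCoR f/f library 2 they were 32 and 4, without WT library 1 they were 32 and 1, and without WT library 2 they were 16 and 5. DESeq2 called 7 and 0, with 246 pairs at an unadjusted p under 0.05. In 3 pairs higher in WT Veh and 2 higher in NCoR f/f Veh, the call was kept under all of no width offset, loess, GC, TMM and median scaling. These were Serpini2, Insig1 and 4933407K13Rik, and Trim32 and Socs1. With all tags of a library as depth, the calls at Trim32, Socs1 and Insig1 were lost, and at an overlap of 80% those at Trim32 and Socs1. The Insig1 pair was not tested there, since its overlap of 175 bp was under 80% of its NCoR f/f peak of 277 bp. None of the 5 was among the 7 pairs called by DESeq2, and each lost its call without at least 1 of the 4 libraries.

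Among pairs higher in WT Veh, the region at -23284 bp from Serpini2, a serpin gene, had 11 and 23 tags in NCoR f/f Veh and 26 and 20 in WT Veh. Its densities were 14.7 and 22.1 against 62.0 and 51.0 tags per kb per 100000. The groups did not overlap, and the log2 difference was 1.57 ± 0.32 (edgeR adjusted p = 0.019). The region at -34153 bp from Insig1, whose product restrains the SREBP activators of sterol synthesis, had 19 and 21 tags in NCoR f/f Veh and 23 and 26 in WT Veh. In density this was 36.7 and 29.1 against 77.8 and 94.0, with a log2 difference of 1.40 ± 0.30 (edgeR adjusted p = 0.019). Both regions are distal. The AP-1 match of the Insig1 region lies in the central 200 bases, and that of Serpini2 lies outside them. The Insig1 promoter pair, at -260 bp, held 28 and 53 tags in NCoR f/f Veh and 35 and 16 in WT Veh. Its densities overlapped between groups, and it was not called (0.16 ± 0.29, edgeR adjusted p = 0.852). A region at 90573 bp from 4933407K13Rik on the X chromosome had 20 and 30 tags against 30 and 45, with a log2 difference of 1.42 ± 0.28 (edgeR adjusted p = 0.014).

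The Etfdh promoter, at the gene of the dehydrogenase that passes electrons from fatty acid oxidation to ubiquinone, was the best covered of the promoters called higher in WT Veh. It held 48 and 66 tags in NCoR f/f Veh and 47 and 44 in WT Veh, or densities of 60.8 and 60.1 against 151 and 151. The libraries of each group were close to each other and the groups lay far apart, with a log2 difference of 1.31 ± 0.25 (edgeR adjusted p = 0.014). Its NCoR f/f peak spanned 422 bp and its WT peak 262 bp. Without the width offset the difference was 0.63 and was not called.

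The Jun promoter, at the gene of an AP-1 subunit, held 36 and 53 tags in NCoR f/f Veh and 47 and 26 in WT Veh. Its densities were 34.9 and 36.9 against 104 and 61.5, so the WT libraries differed from each other but both lay above NCoR f/f. The log2 difference was 1.21 ± 0.27 (edgeR adjusted p = 0.023) and was 0.67, not called, without the width offset. The Hgf promoter, at the gene of hepatocyte growth factor, held 23 and 23 tags against 22 and 20, with a log2 difference of 1.45 ± 0.31 and of 0.82, not called, without the offset. Calls were also lost without the offset at the Gzf1 promoter (18 and 34 tags against 25 and 24, log2 difference 1.36 ± 0.29) and at introns of Eepd1 (20 and 25 against 23 and 18, 1.49 ± 0.31) and of St3gal6, a sialyltransferase gene (17 and 27 against 19 and 18, 1.45 ± 0.32).

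These loci had similar tag numbers in both groups although the WT libraries were shallower. A region at -67645 bp from Gm13498 had 14 and 24 tags in NCoR f/f Veh and 25 and 19 in WT Veh, with a log2 difference of 1.36 ± 0.31, and without the offset it was 1.16 and not called (edgeR adjusted p = 0.084). The pair at -6570 bp from Sirpa, the macrophage receptor for CD47, had 12 and 11 tags against 14 and 10 and was called at 1.80 ± 0.44 (edgeR adjusted p = 0.043), chosen here after its values were seen. Without the width offset the difference was 1.00 and was not called, and the peaks spanned 373 bp (NCoR f/f) and 213 bp (WT).

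**Figure D3:**
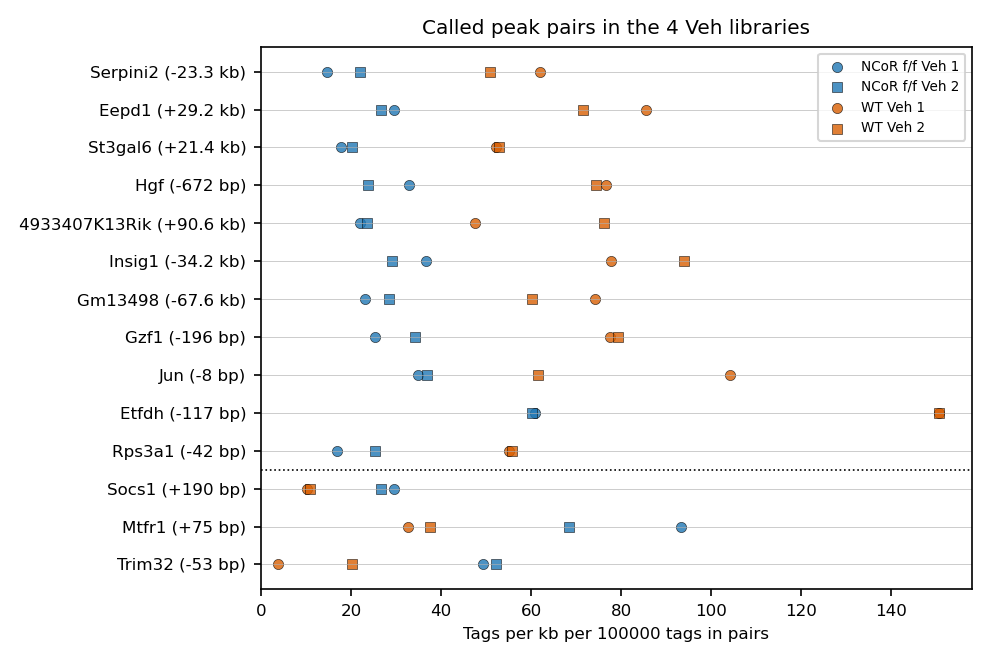
Tags per kb per 100000 tags in pairs (x axis, from 0) in each of the 4 Veh libraries at 11 pairs called higher in WT Veh (above the dotted line) and 3 called higher in NCoR f/f Veh (below it), with gene and distance to its start site. Points are single libraries, and in every row the points of the groups are separate.

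Of the 4 pairs higher in NCoR f/f Veh, 3 lay at start sites. The Trim32 promoter, at the gene of a ubiquitin ligase, held 21 and 31 tags in NCoR f/f Veh and 1 and 5 in WT Veh. Its densities of 49.3 and 52.3 against 3.80 and 20.3 did not overlap, and the log2 difference was -2.08 ± 0.52 (edgeR adjusted p = 0.047). The widths were 228 and 221 bp, and without the width offset the difference was -2.13. The WT value rests on few tags, and leaving out single libraries or changing the scaling moved it between -3.65 and -1.32.

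The pair 190 bp from the start of Socs1, which encodes an inhibitor of cytokine signaling through JAK kinases, held 39 and 49 tags in NCoR f/f Veh and 7 and 7 in WT Veh. In density this was 29.5 and 26.6 against 10.1 and 10.8, with a log2 difference of -1.40 ± 0.36 (edgeR adjusted p = 0.049). The Mtfr1 promoter, at the gene of a mitochondrial fission regulator, held 49 and 50 tags against 13 and 14, and differed by -1.17 ± 0.30 (edgeR adjusted p = 0.049), or -0.92 and not called without the width offset. The remaining pair lay on an unplaced contig near Pisd-ps3, with 60 and 68 tags against 25 and 26. Its peaks spanned 232 bp (NCoR f/f) and 362 bp (WT), and its log2 difference of -1.02 ± 0.26 was -0.38 and not called without the width offset. All 4 adjusted p-values lay just inside the threshold. Neither the Socs1 nor the Trim32 region was in the Veh peak set of the WT table, and both were in that of the NCoR f/f table.

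In the other WT libraries of the same peak table, the Socs1 pair held 33 and 28 tags after 6 h of KLA, a TLR4 agonist, and 28 and 28 after RGFP966 with KLA. The Trim32 pair held 2 and 7, then 13 and 12, and the Insig1 pair 9 and 9, then 16 and 19. For Serpini2 the tags were 14 and 5, then 23 and 31, and for 4933407K13Rik 66 and 25, then 75 and 69. These are raw tags not scaled for the depth of those libraries, so no change from Veh is read from them.

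Pairs called higher in WT Veh had peak widths and base composition unlike those of all pairs, which is given as a description. The WT peak was the narrower one in 55 of the 62 (88.7%), against 72.2% of all pairs. Width enters the offset of the call, so for the same tags a narrower WT peak raises the WT density. Among the 24 pairs called higher in WT Veh without the width offset, the WT peak was narrower in 6 (25.0%). The median GC content of the 62 was 50.5%, against 57.5%, and 20 (32.3%) were promoters, against 52.1%. Satellites made up 12, against 124 of all pairs, and 9 of these 12 lay on unplaced contigs. AP-1 letters stood in 17.0% and PU.1 letters in 11.3% of the 53 on read chromosomes, against 17.6% and 7.82% of all pairs, and NF-Y letters stood in 20.8%, against 34.4%. In the lowest of 5 GC bins (31.0% to 48.0%) the median log2 difference was 0.31, and in the highest (69.0% to 86.5%) it was 0.04.

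The difference moved with the peak edges under both scalings, in opposite directions. Across the 8589 tested pairs, Spearman's rho between the log2 difference and the log2 ratio of WT to NCoR f/f width was -0.27 with the width offset and 0.35 without it. Of 1712 pairs whose log2 width ratio was under -0.5, 31 were called higher in WT Veh and 0 in NCoR f/f Veh by edgeR, with a median log2 difference of 0.37, which became -0.33 without the offset. Among the 3106 pairs with a ratio between -0.2 and 0.2, 17 and 1 were called, and the medians were 0.07 and 0.04. Pairs with peaks of similar width had medians near 0 on both scales.

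**Figure D4:**
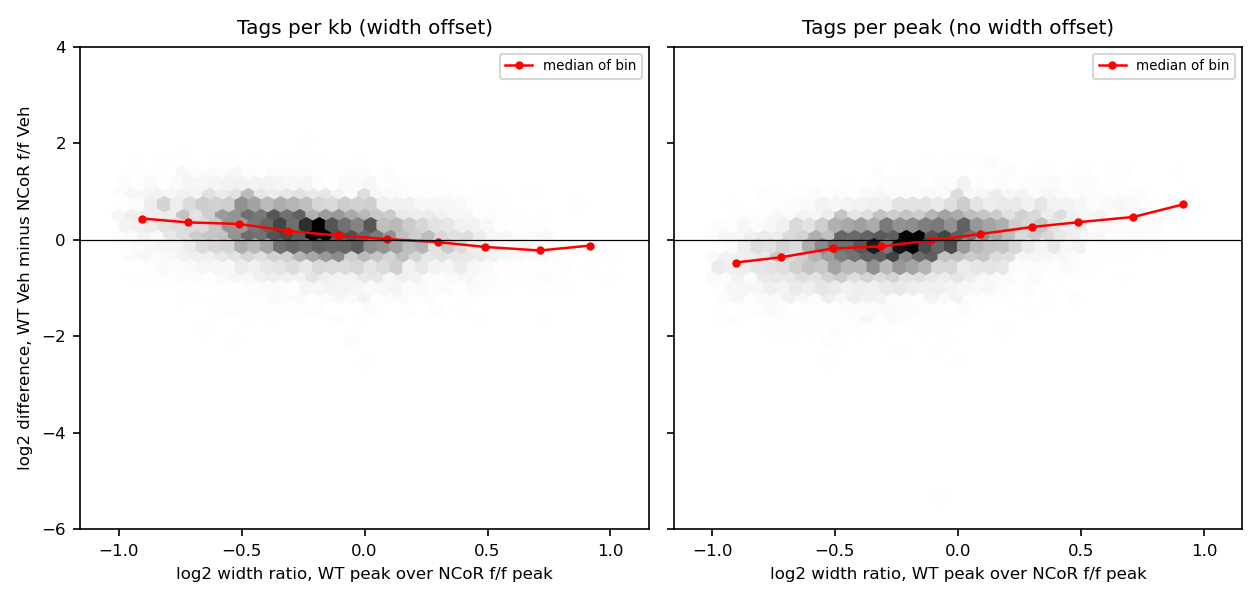
Log2 difference between WT Veh and NCoR f/f Veh (y axis) against the log2 ratio of peak widths, WT over NCoR f/f (x axis), for 8589 tested pairs, from tags per kb (left) and tags per peak (right). Grey hexagons count pairs and red points are medians of 10 equal bins of the ratio, which fall over most of the range with the width offset and rise without it.

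The gene lists showed few calls. The 2 lists of macrophage genes and the NCoR complex had 0 calls by edgeR in either direction over 37, 8 and 4 pairs. The LXR and SREBP lipid genes had 1 of 19 (the Insig1 region), the AP-1 and immediate early genes 1 of 32 (the Jun promoter) and the ribosomal protein genes 1 of 29 (the Rps3a1 promoter), all higher in WT Veh. There were 0 among the TLR4 pathway (19 pairs), NF-kB and inflammatory (29 tested), interferon-stimulated (9), circadian clock (18), cell cycle (18), hypoxia and NRF2 stress (19) and osteoclast genes (4), and 0 among the other cell types and the replication-dependent histone genes. No list held more than 1 called pair, beside the 0.768% called over all pairs, and at these list sizes nothing sets one list apart. The median log2 differences of the lists ran from -0.05 (hypoxia and NRF2 stress genes) to 0.61 (NCoR complex, 4 pairs) among lists of over 2 pairs, beside 0.14 over all pairs.

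The Rps3a1 promoter, at the gene of a small-subunit ribosomal protein, held 13 and 27 tags in NCoR f/f Veh and 19 and 18 in WT Veh. Its densities were 17.0 and 25.3 against 55.2 and 55.9, and the log2 difference was 1.34 ± 0.33 (edgeR adjusted p = 0.047), or 0.84 and not called without the width offset. At an unadjusted p under 0.05, 1277 of the 8589 pairs passed in either direction.

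No pair of a lineage factor was called. The Cebpa promoter, which drives a C/EBP factor of myeloid cells, held 26 and 54 tags in NCoR f/f Veh and 25 and 23 in WT Veh and differed by 0.22 ± 0.28. The Cebpb promoter held 17 and 38 against 16 and 16 (0.05 ± 0.32). The densities overlapped between groups at both genes. A region at -65633 bp from Tfec, of the MITF family, held 10 and 12 tags against 13 and 14 (1.07 ± 0.41, edgeR adjusted p = 0.195).

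Other lineage factors had smaller differences in most cases at the pair nearest the start site. Some pairs farther away differed more, such as 1.37 ± 0.41 in an intron of Mitf and -0.90 ± 0.41 in one of Fli1, and none was called. The Klf4 promoter held 33 and 37 tags in NCoR f/f Veh and 13 and 15 in WT Veh (0.14 ± 0.32), the Cebpd promoter 24 and 42 against 11 and 10 (0.04 ± 0.35), and the Mitf promoter 21 and 28 against 11 and 14 (0.01 ± 0.35). The Bhlhe40 promoter held 25 and 31 against 24 and 10 (-0.03 ± 0.32), and the Ets2 promoter 13 and 30 against 6 and 6 (0.11 ± 0.48). At these 5 promoters the densities of the groups overlapped. The nearest pairs of Fli1, Maf and Runx1 differed by -0.33 ± 0.49, -0.95 ± 0.52 and 0.52 ± 0.44, and the groups were apart only at Maf (13 and 23 tags against 7 and 2).

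Among macrophage markers, the pair at -3849 bp from Cd36, a scavenger receptor gene, held 13 and 15 tags in NCoR f/f Veh and 17 and 7 in WT Veh (1.40 ± 0.43, edgeR adjusted p = 0.101). Its densities were 18.1 and 15.0 against 59.5 and 26.2, so the groups were apart while the WT libraries differed widely. The promoters of Cd68, a lysosomal protein gene, and C1qc, a complement gene, held 25 and 25 tags against 7 and 13 and 20 and 30 against 15 and 10, and differed by 0.01 ± 0.39 and 0.27 ± 0.35. The pair of Cx3cr1, the fractalkine receptor gene, differed by 0.49 ± 0.33, that of Fcgr1, an Fc receptor gene, by 0.31 ± 0.42 and that of Itgam, an integrin gene, by -0.80 ± 0.58. None of these was called.

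Among genes of the NCoR complex, Ncor1 and Hdac3 each had 1 peak in the NCoR f/f table and 0 in the WT table, so the floxed gene itself could not be compared. Tbl1xr1, at the gene of a subunit of the complex, had a pair with 9 and 15 tags in NCoR f/f Veh and 11 and 9 in WT Veh (0.67 ± 0.44) and one with 3 and 7 against 6 and 5. Neither was called.

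Of the study's example genes, the nearest Abca1 pair, at the gene of the cholesterol exporter, held 12 and 14 tags in NCoR f/f Veh and 1 and 3 in WT Veh. Its log2 difference of -1.48 ± 0.69 had an edgeR adjusted p of 0.303. The Scd2 pair, at a stearoyl-CoA desaturase gene, held 25 and 34 against 9 and 8 (-0.45 ± 0.37, edgeR adjusted p = 0.623). Il12a had 2 and 1 tags against 0 and 1 at its nearest pair and was not tested. Ptgs2 had 1 peak in each table that formed no pair, and Ppargc1b, Cp, Acp5 and Ocstamp had no pair.

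**Figure D5:**
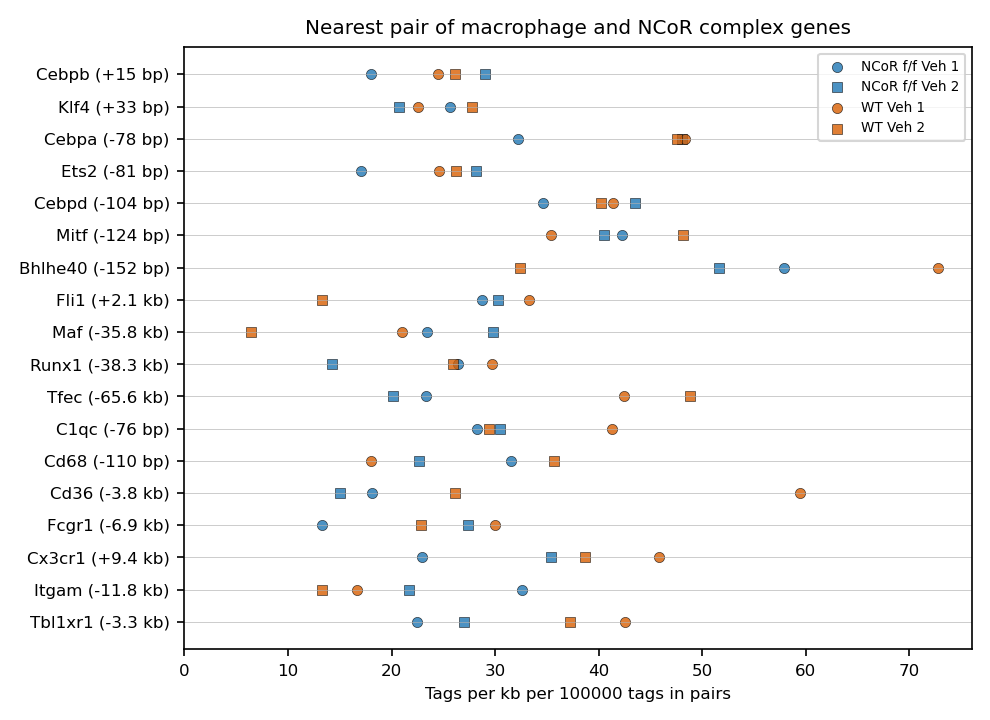
Tags per kb per 100000 tags in pairs (x axis, from 0) in each of the 4 Veh libraries at the pair nearest the start site of 17 macrophage genes and 1 NCoR complex gene, with the distance to it. Points are single libraries, and none of these pairs was called, although the groups are separate at some, such as Tfec and Cd36.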

How the data were processed

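ATAC-seq libraries of vehicle-treated NCoR f/f and WT BMDMs, 2 of each, were compared. By the study's methods and the labels, the authors aligned to mm10 (Bowtie2) and used HOMER for peaks. Peaks had to recur by IDR in the best-correlated pair of samples of a condition, and those of a table were merged. The authors deposited raw tag counts per peak, with at most 3 tags at a position and no scaling for depth. Columns of the other conditions were used only for single values.

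Peaks were paired by reciprocal overlap with bedtools 2.31.1. Tags were tested with edgeR 4.0.16 (glmQLFit and glmQLFTest, R 4.3.3), with the total tags in pairs times the peak width in kb as offset, over pairs that reached 4 tags in some library. No further covariate was used. Scaled densities are tags per kb per 100000 tags in pairs, and ranks were taken within each library. The fit and the motif counts were tested on simulated data. DESeq2 1.42.0 and limma 3.58.1 served the alternatives. The interval ± is the standard error of the fit.

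Named pairs were the 10 with the highest mean rank, up to 8 called pairs in each direction with the largest difference among pairs of at least 20 tags on average whose groups did not overlap, called pairs nearest to listed genes, and fixed macrophage, NCoR complex and example genes. The 12 highest outside repeats, Rn45s and regions of 20% or more soft-masked bases, the pairs called under all of no width offset, loess, GC, TMM and median scaling, 2 rank examples and Sirpa were added after the data were seen. The members and lists were chosen with earlier results of these data known. A few pairs that fall under this rule are not reported here.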

Additional observations from a re-analysis of the deposited data

How the results depend on the processing

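The count of called pairs and the agreement of ranks both depended on the processing. The main counts of 62 higher in WT Veh and 4 higher in NCoR f/f Veh became 121 and 8 with TMM factors, 41 and 0 with all tags of each library as depth (1176 pairs at an unadjusted p under 0.05), 28 and 31 with loess offsets, 24 and 13 without the width offset, 18 and 17 with GC offsets, 4 and 0 at an overlap of 80% (3434 pairs tested, 399 at an unadjusted p under 0.05), 4 and 1 at 90% (1000 pairs) and 7 and 0 with DESeq2 (246 pairs at an unadjusted p under 0.05 in either direction). Alternatives added later, with the data known, were 101 and 9 without repeats, Rn45s and unplaced contigs, 15 and 13 with the median density as depth, and 6 and 1 for peaks whose widths lay within 10% of each other (2146 pairs). A 1.5-fold threshold, no filter, a filter of 16 tags, the Veh peak sets and chromosomes 1 to 19 left the counts within 1.5 times. Leaving out 1 library gave 16 to 39 higher and 0 to 5 lower. With the replicate number as a block, the counts were 93 and 9. The groups share only the number: the deviations of same-numbered libraries from their group means had a correlation of -0.03 over 8589 pairs, so the block is no pairing of animals. The cause of these shifts was not tested beyond the smaller numbers of pairs given.

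The mean rho across groups, 0.629, was 0.710 for tags per peak, 0.667 and 0.687 at overlaps of 80% and 90%, 0.612 with at least 16 tags in every library, 0.506 within the Veh peak sets, 0.574 for promoters and 0.610 without repeats. Leaving out 1 library gave 0.622 to 0.637. These are means over some of the same across-group values, so they had to stay within that range. In the settings that kept all 4 libraries, both within-group values stayed above the across-group values, but the gap to the WT value could be small. Within the Veh peak sets, rho was 0.750 between the NCoR f/f libraries, 0.543 between the WT libraries and 0.501 to 0.517 across groups. At an overlap of 90% it was 0.793, 0.729 and 0.676 to 0.699. The 54 shared top pairs became 32 without repeats and were within 1.5 times under tags per peak, the other overlaps and the Veh sets. Leaving out 1 library gave 54 to 64. With fewer lists to share, this number could not fall below 54. All 1168 values of the 66 called pairs under the 21 alternatives kept their sign and 681 kept the call. The 66 were chosen for large differences in these same libraries, and the 1.5-fold threshold reused the main fit. Kept signs were therefore close to fixed in advance and add no support. Another 117 values of named pairs that were not called changed sign.

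Depth limits the single pairs most in WT Veh, with medians of 12 and 11 tags per pair.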
